A study of Mus musculus with 6 samples.

Results

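The NF-κB subunits and their feedback inhibitors were examined in single-cell RNA sequencing of CD45+ cells from the arthritic mouse joint. The group holds 9 genes, taken by symbol from the 20394 genes of the table: the subunit genes Rela, Rel, Relb, Nfkb1 and Nfkb2 and the inhibitor and cofactor genes Nfkbia, Nfkbiz, Tnfaip3 and Bcl3. All 9 were found. Antigen-induced arthritis (AIA) was raised in male wild-type C57BL/6 mice by immunization with 10 µg methylated bovine serum albumin (mBSA) in complete Freund's adjuvant, followed on day 21 by 100 µg mBSA into the knee. The 6 samples comprise 2 from mice given the vehicle PBS and 4 from mice given PEPITEM, an immune-modulating peptide, at 300 µg intraperitoneally, with joints collected 3 days after the knee injection. Both groups were therefore immunized, challenged and inflamed, and neither is a healthy control.

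The question behind the samples is whether PEPITEM alters the joint leukocytes, and it could not be addressed here. Each cell barcode ends in a library number from 1 to 6, and no source used here ties a number to a mouse or a treatment. The numbers were used as 6 libraries of unknown treatment. Levels are given in CPM, the number of unique molecular identifiers (UMIs) of a gene per 1000000 UMIs of the cells concerned, pooled over all cells of a class and as the lowest, median and highest library with at least 20 cells. The range over libraries mixes treatment, mouse, preparation and counting error, and no test over libraries was run.

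NF-κB proteins bind DNA as dimers. RelA, c-Rel and RelB (encoded by Rela, Rel and Relb) carry the activating domain, whereas p50 and p52 are made from longer precursors encoded by Nfkb1 and Nfkb2. In the canonical pathway the dimers wait in the cytoplasm bound to IκBα, the product of Nfkbia, until the IKK kinase complex triggers its breakdown, and in the non-canonical pathway processing of the Nfkb2 product frees RelB with p52. Nfkbia and Tnfaip3 (A20, a ubiquitin-editing enzyme) are themselves induced by NF-κB and close a negative feedback loop. Nfkbiz (IκBζ) and Bcl3 are nuclear relatives of IκBα that bind p50 or p52 dimers at promoters and change the choice of genes that are transcribed. In arthritis the pathway is known for its part in the production of cytokines such as TNF and IL-1 by joint leukocytes.

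The table held 32953 cells, with 2919 to 9345 cells and 47273569 to 123367661 UMIs per library, and 138 barcodes occurred in more than 1 library (276 cells). The members were left out when the cells were clustered. From markers, 23 classes were named, of which 22 had at least 50 cells, 14 had at least 20 cells in all 6 libraries, and 943 cells (2.86%) stayed unnamed. Ptprc, the gene for CD45, had a UMI in 95.8% of the cells but in 23.0% of the 161 fibroblast-like cells, which the CD45+ label of the sort does not match. Precursors of granulocytes (1016 cells) and B cells (620 pro-B cell-like and 2088 pre-B cell-like cells) were also present. Neutrophil granule RNA (Ngp, Camp, Ltf and Lcn2 summed) stood at 88118 CPM in immature neutrophil-like cells, at 20.5 CPM in pre-B cell-like cells and at 1285 CPM in T cell-like cells, where it ranged from 28.8 to 4176 CPM over the libraries.

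In the mouse genome (GRCm38, GENCODE M21 annotation) the members lie on 7 chromosomes and are all protein coding. Rela (chr19:5637483-5648130) and Nfkb2 (chr19:46304320-46312385) share chromosome 19, and Relb (chr7:19606217-19629438) and Bcl3 (chr7:19808462-19822770) share chromosome 7. The others are Rel (chr11:23736847-23770970), Nfkb1 (chr3:135584655-135691547), Nfkbia (chr12:55489410-55492647), Nfkbiz (chr16:55811375-55838899) and Tnfaip3 (chr10:19000910-19015657). Exons of Nfkb2 overlap those of Psd and AC114539.1, and exons of Bcl3 overlap those of Gm16175, in each case on the opposite strand. Whether the counting used strand is not given in the sources used here, so reads of these overlaps are uncertain.

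RefSeq promoter windows (GRCm38.p6) were given for 6 of the 9 members and are missing for Relb, Nfkb1 and Nfkbiz. The 250 bases before the start were searched on both strands for the NF-κB consensus, the 10-base site that the dimers bind, because several members are known to be induced by NF-κB and the levels of some ran together over the cell classes. Overlapping matches were counted by their first base. Of 32851 such windows of all genes, 7.25% held at least 1 match. The windows of Nfkb2, Rel, Tnfaip3 and Nfkbia are shown 5′ to 3′ up to the start, with matches in capitals.
Nfkb2 (chr19:46304487-46304736, plus strand): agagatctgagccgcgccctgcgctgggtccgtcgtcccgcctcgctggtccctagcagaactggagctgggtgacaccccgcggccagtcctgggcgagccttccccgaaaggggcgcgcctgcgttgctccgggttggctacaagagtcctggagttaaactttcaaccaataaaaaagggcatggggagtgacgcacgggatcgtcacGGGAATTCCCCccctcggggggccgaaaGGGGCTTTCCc
Rel (chr11:23770970-23771219, minus strand): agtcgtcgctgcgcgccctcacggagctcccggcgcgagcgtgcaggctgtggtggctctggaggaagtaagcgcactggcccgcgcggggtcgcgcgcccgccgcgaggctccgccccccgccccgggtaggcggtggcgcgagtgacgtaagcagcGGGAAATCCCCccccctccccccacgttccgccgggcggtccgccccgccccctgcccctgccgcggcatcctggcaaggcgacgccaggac
Tnfaip3 (chr10:19015411-19015660, minus strand): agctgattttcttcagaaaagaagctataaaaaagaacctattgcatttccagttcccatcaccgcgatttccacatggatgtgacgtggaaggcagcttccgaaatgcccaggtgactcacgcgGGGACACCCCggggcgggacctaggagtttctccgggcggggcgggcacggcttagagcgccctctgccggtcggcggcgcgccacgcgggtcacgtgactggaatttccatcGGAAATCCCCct
Nfkbia (chr12:55492648-55492897, minus strand): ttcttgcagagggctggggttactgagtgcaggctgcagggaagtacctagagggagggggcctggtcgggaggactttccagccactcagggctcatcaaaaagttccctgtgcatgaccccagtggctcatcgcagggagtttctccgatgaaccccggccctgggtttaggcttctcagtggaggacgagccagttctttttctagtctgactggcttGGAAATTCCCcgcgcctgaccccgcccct
In Nfkb2 3 matches lay between 39 and 2 bases before the start, and those beginning at 39 and 38 bases overlap in 1 stretch. Counted in the same way, only 0.143% of all windows held 3 or more. Rel held 2 overlapping matches between 92 and 82 bases before its start, Tnfaip3 held 2 at 125 and 12 bases, and Nfkbia held 1 at 29 bases. The windows of the other 2 Nfkb2 starts held 1 match each. The windows of Rela and Bcl3, and the second Tnfaip3 start, held 0 matches. These matches are letters in a window and were not measured as binding sites.

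All 9 members were detected in every class of at least 50 cells, but each had its own order of classes. Relb, Nfkb2 and Rel stood highest in migratory dendritic cell-like cells, Nfkb1 in type 2 innate lymphoid cell-like cells, Nfkbiz and Tnfaip3 in mast cell-like cells, Nfkbia in basophil-like cells and Bcl3 in plasmacytoid dendritic cell-like cells. Granulocyte precursor-like and pro-B cell-like cells sat at the low end for most members. Among neighbours in these orders that both had at least 2 libraries, library ranges overlapped for 19 of 19 pairs for Rela and for 17 to 18 of 19 or 20 pairs for the other members, so adjacent places in an order mostly do not differ beyond the spread of the libraries.

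**Figure D1:**
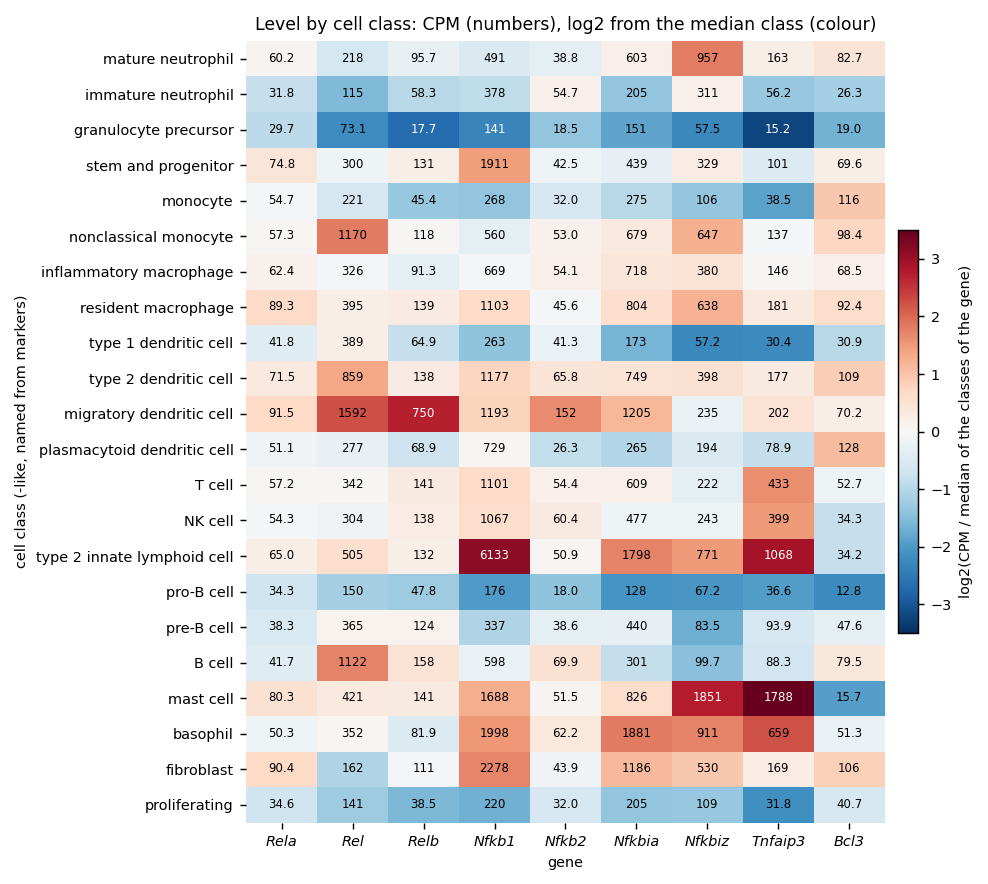
Heat map of the 9 genes (columns) in the 22 cell classes with at least 50 cells (rows). Numbers are CPM over all cells of the class and colour is the log2 distance from the median class of the same gene, from blue (lower) to red (higher), with Nfkb1 at 6133 CPM in type 2 innate lymphoid cell-like cells and Relb at 749.9 CPM in migratory dendritic cell-like cells as the darkest red cells of the subunits.

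Rela, which encodes the RelA subunit of the classical dimer, was the most even member. Its pooled level ran from 29.7 CPM in granulocyte precursor-like cells to 91.5 CPM in migratory dendritic cell-like cells. Resident macrophage-like cells reached 89.3 CPM (72.8, 90.8 and 98.8 CPM in the lowest, median and highest library), and mature neutrophil-like cells 60.2 CPM (52.9, 62.3 and 71.5 CPM). The B lineage was lower, with 41.7 CPM in B cell-like and 38.3 CPM in pre-B cell-like cells, while T cell-like cells held 57.2 CPM and type 2 innate lymphoid cell-like cells 65.0 CPM. With every cell thinned to 2000 UMIs, Rela was found in 6.33% of immature neutrophil-like cells and in 20.3% of fibroblast-like cells (95% Wilson interval 14.7% to 27.2%, counting error only), the extremes over the classes of at least 50 cells. No class here is known to lack Rela or the other members, so no share could be set against a class without the gene.

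Rel encodes c-Rel, the subunit known for its roles in lymphocytes and antigen-presenting cells. It was highest in migratory dendritic cell-like cells at 1592 CPM (1545, 1640.5 and 1207 CPM in libraries 1, 3 and 5). Nonclassical monocyte-like cells followed at 1170.1 CPM, with 1153 and 1229 CPM in the libraries that had enough cells. In B cell-like cells Rel reached 1122 CPM (1022, 1106 and 1335 CPM), and in type 2 dendritic cell-like cells 859 CPM (736, 874 and 900.0 CPM), and these last ranges did not overlap. Classical monocyte-like cells, at 221 CPM (193, 221 and 281 CPM), lay far under nonclassical ones. After thinning, 95.1% of migratory dendritic cell-like, 79.8% of nonclassical monocyte-like and 75.6% of B cell-like cells still had a Rel UMI, against 13.4% of granulocyte precursor-like cells.

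Relb, the partner of p52 in the non-canonical dimer, separated migratory dendritic cell-like cells from every other class. These 123 cells held 749.9 CPM, with 756 CPM in library 1, 823 CPM in library 3 and 508 CPM in library 5. The libraries with under 20 such cells gave 862, 754 and 947 CPM. B cell-like cells came next among the classes of at least 50 cells with 158 CPM (138.5, 149.6 and 197 CPM), so the lowest of all 6 migratory dendritic cell-like values was above the highest B cell-like library. Mast cell-like cells at 141 CPM and the 6 classes after them, down to stem and progenitor-like cells at 131 CPM, had ranges that overlapped from one to the next. Granulocyte precursor-like cells were lowest at 17.7 CPM (7.65, 17.5 and 29.5 CPM).

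Nfkb2, which encodes the p52 precursor, followed Relb at the top of its order. Migratory dendritic cell-like cells held 152 CPM (181.5, 120.2 and 135 CPM in libraries 1, 3 and 5), B cell-like cells 69.9 CPM (47.5, 71.9 and 76.6 CPM) and type 2 dendritic cell-like cells 65.8 CPM (47.7, 64.6 and 82.6 CPM). The range of the migratory dendritic cell-like libraries did not overlap that of the B cell-like libraries. Immature neutrophil-like cells held 54.7 CPM (45.4, 56.8 and 76.1 CPM), above the pooled 38.8 CPM of mature neutrophil-like cells. Pro-B cell-like cells were lowest at 18.0 CPM, with libraries from 7.89 CPM over 32 cells to 48.4 CPM over 28 cells.

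**Figure D2:**
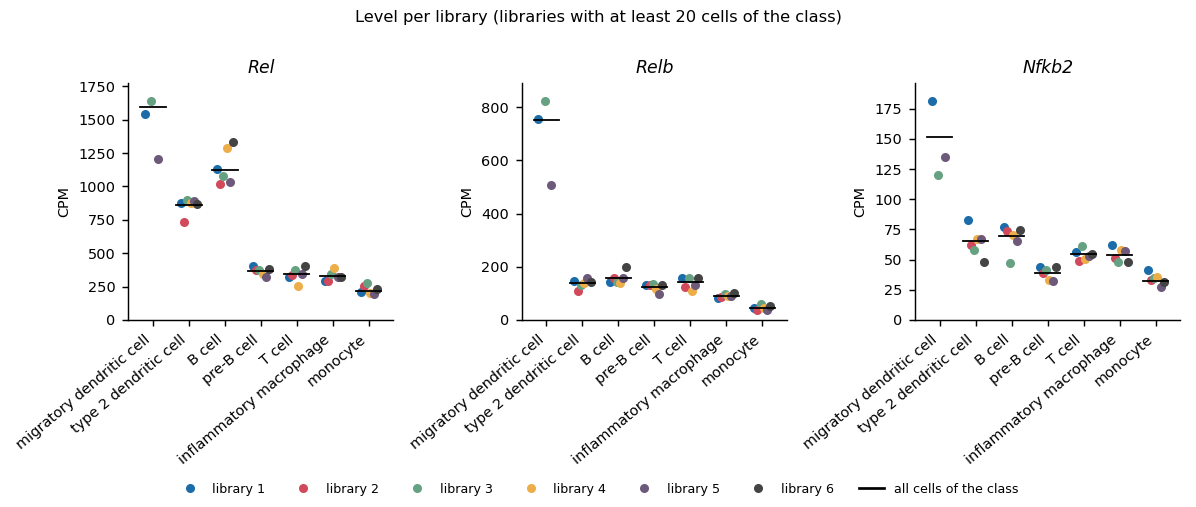
Levels of Rel, Relb and Nfkb2 in 7 cell classes, in CPM on linear axes from 0. Each point is 1 library with at least 20 cells of the class and each line is the level over all cells, with the 3 migratory dendritic cell-like libraries of Relb at 508 to 823 CPM above each other point of that panel.

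Nfkb1 encodes the precursor of p50, which pairs with RelA or c-Rel. The 131 type 2 innate lymphoid cell-like cells, a tissue lymphocyte that makes IL-5 and IL-13, held 6133 CPM. Libraries 4, 5 and 6 gave 5829, 5851 and 8926 CPM, and libraries 1, 2 and 3, with 13 to 19 cells each, gave 6270.4, 5396 and 3709 CPM. The next class was fibroblast-like cells at 2278 CPM (2420.0 and 2465 CPM in the libraries with enough cells), then basophil-like cells at 1998 CPM, stem and progenitor-like cells at 1911 CPM (1285, 1898 and 3325 CPM) and mast cell-like cells at 1688 CPM (1300.3, 1738 and 1751 CPM). Stem and progenitor-like cells were not uniform, since the cluster led by Angpt1, Prkg1 and Ctla2a held 4198 CPM over 84 cells and the cluster led by Adgrl4, Cd34 and Angpt1 held 678 CPM over 87 cells. Tissue myeloid classes lay in between, at 1177 CPM in type 2 dendritic cell-like cells and 1103 CPM in resident macrophage-like cells, and monocyte-like cells were at 268 CPM (221, 252 and 333 CPM).

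Among the inhibitors, Nfkbia (IκBα, which holds the dimers in the cytoplasm) was highest in basophil-like cells at 1881 CPM, where 36 of the 72 cells came from library 2, at 1646 CPM. The other 5 libraries had 5 to 10 such cells and ran from 1036 to 5543 CPM. The size of this class depended on the setting, with 19 cells at a clustering resolution of 0.5, 52 at 2.0 and 34 with cells gated one by one. Type 2 innate lymphoid cell-like cells held 1798 CPM (1392, 1565 and 2642 CPM in the lowest, median and highest of 3 libraries), migratory dendritic cell-like cells 1205 CPM and fibroblast-like cells 1186 CPM. Macrophages held 804 CPM in the resident class (657, 799 and 974 CPM) and 718 CPM in the inflammatory class (526, 695 and 856 CPM), and these ranges overlapped. Type 1 dendritic cell-like cells, at 173 CPM (115, 155 and 168 CPM), were far under type 2 dendritic cell-like cells at 749 CPM (557, 716 and 947 CPM).

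Tnfaip3 (A20), the ubiquitin-editing brake on TNF and Toll-like receptor signalling, was highest in mast cell-like cells at 1788 CPM, with 2253, 2074 and 1433 CPM in libraries 1, 4 and 5. The libraries with 15 to 18 such cells gave 1429, 971 and 2270.0 CPM. Type 2 innate lymphoid cell-like cells followed at 1068 CPM (914, 1193 and 1300.0 CPM) and basophil-like cells at 659 CPM. T cell-like cells, at 433 CPM (379, 421 and 499 CPM), and NK cell-like cells, at 399 CPM (248, 348 and 593 CPM), stood above the macrophage and monocyte classes, where resident macrophage-like cells held 181 CPM and monocyte-like cells 38.5 CPM. The share of T cell-like cells with a UMI was 90.0% at full depth and 56.1% after thinning (53.3% to 58.9%).

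Nfkbiz (IκBζ), needed for a set of secondary response genes such as Lcn2, was high in some myeloid classes and low in others. Mast cell-like cells led with 1851 CPM (1699, 1768 and 2143 CPM in libraries 1, 4 and 5). Mature neutrophil-like cells came next with 957 CPM (793, 1057 and 1382 CPM), and 86.7% of their 5703 cells had a UMI although their median depth was only 4843 UMIs. Resident macrophage-like cells held 638 CPM (590.3, 668 and 684 CPM), inflammatory macrophage-like cells 379.8 CPM (297, 359 and 485 CPM) and monocyte-like cells 106 CPM (65.6, 107.5 and 123 CPM). Outside the myeloid classes, type 2 innate lymphoid cell-like cells held 771 CPM and fibroblast-like cells 530 CPM. B cell-like cells were at 99.7 CPM and type 1 dendritic cell-like cells at 57.2 CPM.

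Bcl3 had another order of classes than the other inhibitors. Plasmacytoid dendritic cell-like cells held 128 CPM (80.8, 142 and 156 CPM), monocyte-like cells 116 CPM (98.1, 122 and 166 CPM) and type 2 dendritic cell-like cells 109 CPM (92.5, 111 and 118 CPM). Mast cell-like cells, at the top for Nfkbiz and Tnfaip3, were close to the bottom for Bcl3 with 15.7 CPM, or 18 UMIs in 191 cells, and libraries from 3.20 to 43.0 CPM. Type 2 innate lymphoid cell-like cells held 34.2 CPM (22.1, 23.6 and 26.0 CPM, from 4 to 6 UMIs per library). Libraries 1, 2 and 3, with 13 to 19 such cells, were left out of this range and gave 54.8, 37.6 and 50.5 CPM. Pro-B cell-like cells were lowest at 12.8 CPM (8.37, 12.3 and 21.8 CPM).

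Mast cell-like cells also carried the highest sum of the 14 immediate-early and heat shock genes that digestion at 37 °C is known to raise (Fos, Jun, Egr1, Hspa1a and others). The sum was 29058 CPM in these cells (27297 to 33529 CPM over 3 libraries), against 9122 CPM in type 2 innate lymphoid cell-like cells, 12898 CPM in resident macrophage-like cells and 2977 CPM in immature neutrophil-like cells. Neutrophil granule RNA ran from 1370 to 11126 CPM over the mast cell-like libraries and from 5.20 to 20678 CPM over those of type 2 innate lymphoid cell-like cells. Whether either sum has a part in the mast cell-like or innate lymphoid cell-like levels of the members was not tested.

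**Figure D3:**
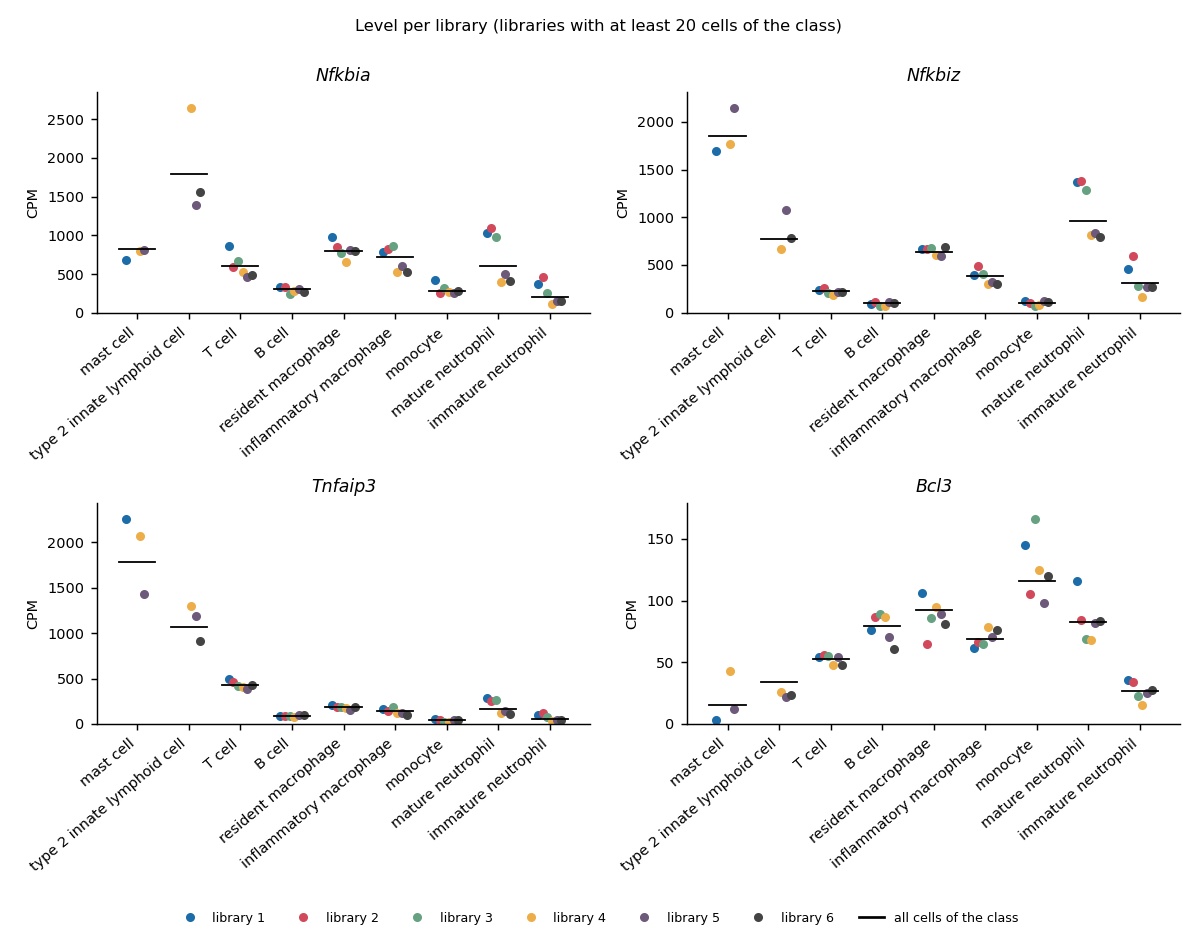
Levels of Nfkbia, Nfkbiz, Tnfaip3 and Bcl3 in 9 cell classes, in CPM on linear axes from 0. Points are libraries with at least 20 cells of the class and lines are levels over all cells. Mast cell-like cells have the highest line for Nfkbiz and Tnfaip3 and the lowest line for Bcl3.

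The classes were then compared in 7 pairs, with 6 libraries on each side except for the migratory dendritic cell-like class, which had 3. A member was called higher in a class where its lowest library lay above the highest library of the other class. All 9 members reached 5 CPM in 1 of the classes of every pair, and the same rule applied to all genes of at least 5 CPM gives the share called in each direction as background.

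**Figure D4:**
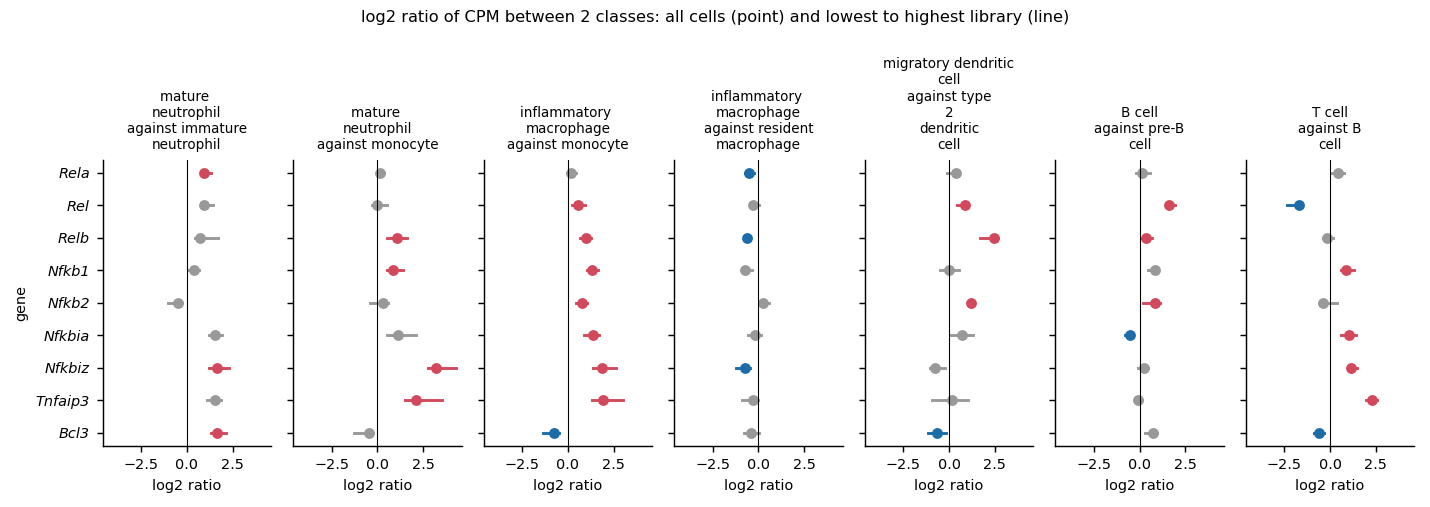
Log2 ratio of CPM for each gene in 7 pairs of cell classes, first class over second. Points are ratios over all cells and lines run from the lowest to the highest library. Red marks ranges of the first class wholly above the second, blue the reverse and grey ranges that overlap. The pair of inflammatory macrophage-like and monocyte-like cells has 7 red genes and 1 blue one, Bcl3.

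Mature neutrophil-like cells were called higher than immature ones for 3 members and lower for 0. Bcl3 stood at 82.7 CPM in mature neutrophil-like cells (67.8 to 116 CPM) and at 26.3 CPM in immature ones (15.2 to 35.6 CPM), a ratio of 3.15. Nfkbiz was 3.08 times higher (957 against 311 CPM) and Rela 1.89 times (60.2 against 31.8 CPM). For Nfkbia the ratio was 2.94 and for Tnfaip3 2.91, both in the same direction in 6 of 6 libraries, but their ranges overlapped. Nfkb2 was at 38.8 CPM in mature and at 54.7 CPM in immature cells, lower in mature cells in 6 of 6 libraries with overlapping ranges. Of 6936 genes, 24.3% were called higher in mature and 23.8% in immature cells. The 3 of 9 members called higher in mature cells are not far above the former share. In the same pair 9 of the 14 immediate-early and heat shock genes were called higher in mature cells and 0 lower, with sums of 7089 to 10109 CPM against 2689 to 3209 CPM over the libraries, and their part in the members' values was not tested. Without library 2 the count was 5, with Nfkbia and Tnfaip3 added, and without library 4 it was also 5, with Rel and Relb added. At a clustering resolution of 0.5 it was 7 members, with 7348 cells then in the mature class. With genes over 0.5% of UMIs left out of the denominator, 3 members were called higher in mature cells and 1 lower. Over 16 other settings the log2 ratio ran from 0.54 to 0.94 for Rela and from -0.002 to 0.84 for Nfkb1. The calls are for whole classes and did not hold between all their clusters. For Bcl3, Nfkbiz and Rela the mature cluster led by Retnlg, BC100530 and Mmp8 overlapped the immature one led by Ltf, Dach1 and Ngp. For Nfkbiz these clusters ran from 395 to 945 CPM and from 436 to 842 CPM over the libraries. Neutrophil granule RNA took 6870 CPM in mature and 88118 CPM in immature cells, and its part in the ratios was not tested on its own. The changed denominator was set by a gene's share of UMIs and not by the granule genes.

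Against monocyte-like cells, mature neutrophil-like cells were called higher for Relb, Nfkb1, Nfkbiz and Tnfaip3, or 4 of 9 members, and lower for 0. Nfkbiz stood at 957 CPM (793 to 1382 CPM) against 106 CPM (65.6 to 123 CPM), a ratio of 9.003 that held its direction in 6 of 6 libraries. Tnfaip3 was at 163 against 38.5 CPM, a ratio of 4.24. Rel did not separate the classes, with 218 against 221 CPM. Over 9261 genes, 14.8% were called higher in the neutrophil class and 63.7% higher in the monocyte class, and the median log2 ratio over these genes was -1.46, so most genes take a smaller part of the neutrophil library. The median of the members was 0.87. With genes over 0.5% of UMIs left out of the denominator, 6 members were called higher in mature neutrophil-like cells, and without library 1 it was 5. Without the monocyte cluster led by Arhgef37, Gm26522 and Hspa1a, or without the mature cluster led by Csf1, the call for Relb was lost. Bcl3 was called lower in mature neutrophil-like cells without that monocyte cluster and also without library 1. At resolution 2.0 and with cells gated one by one, Nfkbiz alone kept this call.

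Inflammatory macrophage-like cells, marked here by Arg1, Spp1 and Cxcl9, were called higher than monocyte-like cells for 7 of 9 members and lower for 1. The ratio was 3.78 for Tnfaip3 (146 against 38.5 CPM), 3.57 for Nfkbiz (379.8 against 106 CPM), 2.61 for Nfkbia (718 against 275 CPM), 2.50 for Nfkb1 (669 against 268 CPM), 2.01 for Relb, 1.69 for Nfkb2 and 1.48 for Rel. Bcl3 went the other way, at 68.5 CPM (61.4 to 78.7 CPM) in inflammatory macrophage-like cells and 116 CPM (98.1 to 166 CPM) in monocyte-like cells. Rela, at 62.4 against 54.7 CPM, had overlapping ranges. As background, 14.9% of 9391 genes were called higher in the macrophage class and 21.0% in the monocyte class. The 1 of 9 members called higher in the monocyte class is under the latter share. Neutrophil granule RNA was at 8059 CPM in the macrophage class and 460 CPM in the monocyte class, and without the cells over 2000 CPM of these granule genes the count stayed at 8 members. With cells gated one by one the count was 0, and the log2 ratios of Relb and Nfkbiz were 0.23 and 0.29 in place of 1.01 and 1.84. This gate left 256 inflammatory macrophage-like cells, against 4298, and 4964 monocyte-like cells, against 2443, and the part of either change was not tested. Without the monocyte cluster led by Arhgef37, Gm26522 and Hspa1a the call for Nfkb2 was lost, and at resolution 2.0 the count was 5, namely Relb, Nfkb1, Nfkbiz, Tnfaip3 and Bcl3.

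Between the macrophage classes, 0 members were called higher in inflammatory macrophage-like cells and 3 in resident macrophage-like cells, a class named from markers such as Lyve1, Folr2 and Vsig4. Its cluster led by Lyve1, Fxyd2 and Aqp1 made up 83.3% to 95.3% of the class over the libraries. Fxyd2 and Aqp1 are listed as markers of another macrophage type, which was not a class of its own here. Nfkbiz stood at 379.8 CPM (297 to 485 CPM) against 638 CPM (590.3 to 684 CPM), Relb at 91.3 against 139 CPM and Rela at 62.4 against 89.3 CPM. Nfkb1 (669 against 1103 CPM) and Tnfaip3 (146 against 181 CPM) were lower in the inflammatory class within each of the 6 libraries, and Nfkb2 was higher within each of them (54.1 against 45.6 CPM), but the ranges of these 3 members overlapped. The background was 7.27% of 9533 genes higher in the inflammatory and 20.6% higher in the resident class. The 3 of 9 members called higher in the resident class are not far above the latter share. In the same pair 8 of the 14 immediate-early and heat shock genes were called higher in the resident class and 0 lower, led by Hspa1b (269 against 47.9 CPM), Hspa1a (513 against 97.9 CPM) and Egr1 (714 against 159.7 CPM), and their part in the members' values was not tested. Without library 2 the count was 5, with Nfkb1 and Bcl3 added, without the cells over 2000 CPM of granule genes the call for Rela was lost, and with cells gated one by one the count was 1, Nfkbiz.

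Migratory dendritic cell-like cells, the Ccr7+ and Fscn1+ state in which dendritic cells leave a tissue, were called higher than type 2 dendritic cell-like cells for Relb, Nfkb2 and Rel. The ratios were 5.42 for Relb (749.9 against 138 CPM), 2.31 for Nfkb2 (152 against 65.8 CPM) and 1.85 for Rel (1592 against 859 CPM), in 3 of 3 libraries with enough cells of both. Bcl3 was called lower (70.2 against 109 CPM). Nfkb1 did not separate the classes (1193 against 1177 CPM), nor did Tnfaip3 (202 against 177 CPM), whose libraries differed in sign. Of 9528 genes, 12.2% were called higher in the migratory class and 22.7% in the type 2 class. The 1 of 9 members called higher in the type 2 class is under the latter share. Over 16 other settings the Relb ratio stayed between 4.68 and 6.00, whereas the call for Bcl3 was lost at resolution 2.0. Some of these settings, which leave out neutrophil, monocyte or resident macrophage clusters, cannot change this pair. With cells gated one by one, the call for Rel was lost and Nfkbiz was called lower in the migratory class. Of the other pathway genes, Birc2, an adaptor-bound ubiquitin ligase that keeps the non-canonical pathway off, stood at 285 against 33.8 CPM, and the chemokine targets Ccl22 and Ccl5 at 959.7 against 82.6 CPM and 2728 against 60.9 CPM. Ccl22 was also among the markers that named the migratory class. These are the list genes with the largest ratios, and of the 24 known targets 8 were called higher in the migratory class, 5 lower and 11 overlapped, with a median log2 ratio of -0.09.

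In the B lineage, B cell-like cells were called higher than pre-B cell-like cells for Rel, Relb and Nfkb2 and lower for Nfkbia. Rel stood at 1122 CPM (1022 to 1335 CPM) against 365 CPM (319.7 to 401 CPM), a ratio of 3.07. Nfkb2 was at 69.9 against 38.6 CPM and Relb at 158 against 124 CPM, close enough that the highest pre-B library, at 137 CPM, lay just under the lowest B library, at 138.5 CPM. Nfkbia was at 301 CPM (247 to 328 CPM) against 440.0 CPM (396 to 538 CPM). The background was 11.9% of 9637 genes higher in B cell-like and 12.0% higher in pre-B cell-like cells. The 1 of 9 members called higher in pre-B cell-like cells is near the latter share. Without the 276 cells with a shared barcode, the call for Relb was lost and 3 members were left. The known targets Bcl2a1b (68.0 against 1.27 CPM) and Cd83 (801 against 38.0 CPM) and the adaptor gene Traf1 (31.5 against 2.71 CPM) were the list genes with the largest ratios in this pair.

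T cell-like and B cell-like cells had separate ranges for 6 members, while Rela, Relb and Nfkb2 had overlapping ranges. T cell-like cells were called higher for Tnfaip3 (433 against 88.3 CPM, a ratio of 4.90), Nfkbiz (222 against 99.7 CPM), Nfkbia (609 against 301 CPM) and Nfkb1 (1101 against 598 CPM). B cell-like cells were called higher for Rel (1122 against 342 CPM) and Bcl3 (79.5 against 52.7 CPM). Each of these 6 differences had the same sign in 6 of 6 libraries. Of 10391 genes, 20.5% were called higher in T cell-like and 22.3% in B cell-like cells. The 2 of 9 members called higher in B cell-like cells are near the latter share. With cells gated one by one, the calls for Nfkbia and Nfkbiz were lost, and granule RNA in the T cell-like class ranged widely over the libraries, as given above. The Rel and Tnfaip3 ratios were nearly fixed over 16 other settings, at 0.290 to 0.371 and 4.61 to 5.09. Some of these settings, which leave out neutrophil, monocyte or resident macrophage clusters, cannot change this pair.

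Members also differed between clusters inside a class, where clusters are named by their leading genes. Clusters are formed from differences in expression, and the share of all genes that separate them was not counted. Mature neutrophil-like cells formed 3 clusters. The cluster led by Csf1, Ccrl2 and Rsad2 (973 cells) held 1609.9 CPM of Nfkbia, the one led by Ifitm1, Lypd6b and Gm5483 (2918 cells) 584 CPM and the one led by Retnlg, BC100530 and Mmp8 (1812 cells) 256 CPM. Tnfaip3 followed the same order with 376, 174 and 73.1 CPM, as did Nfkb1 with 907, 509.7 and 316 CPM and Relb with 162, 102 and 63.6 CPM. The cluster led by Csf1 had the lowest depth, with a median of 3827 UMIs, against 4477 and 6223.5 UMIs in the others.

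**Figure D5:**
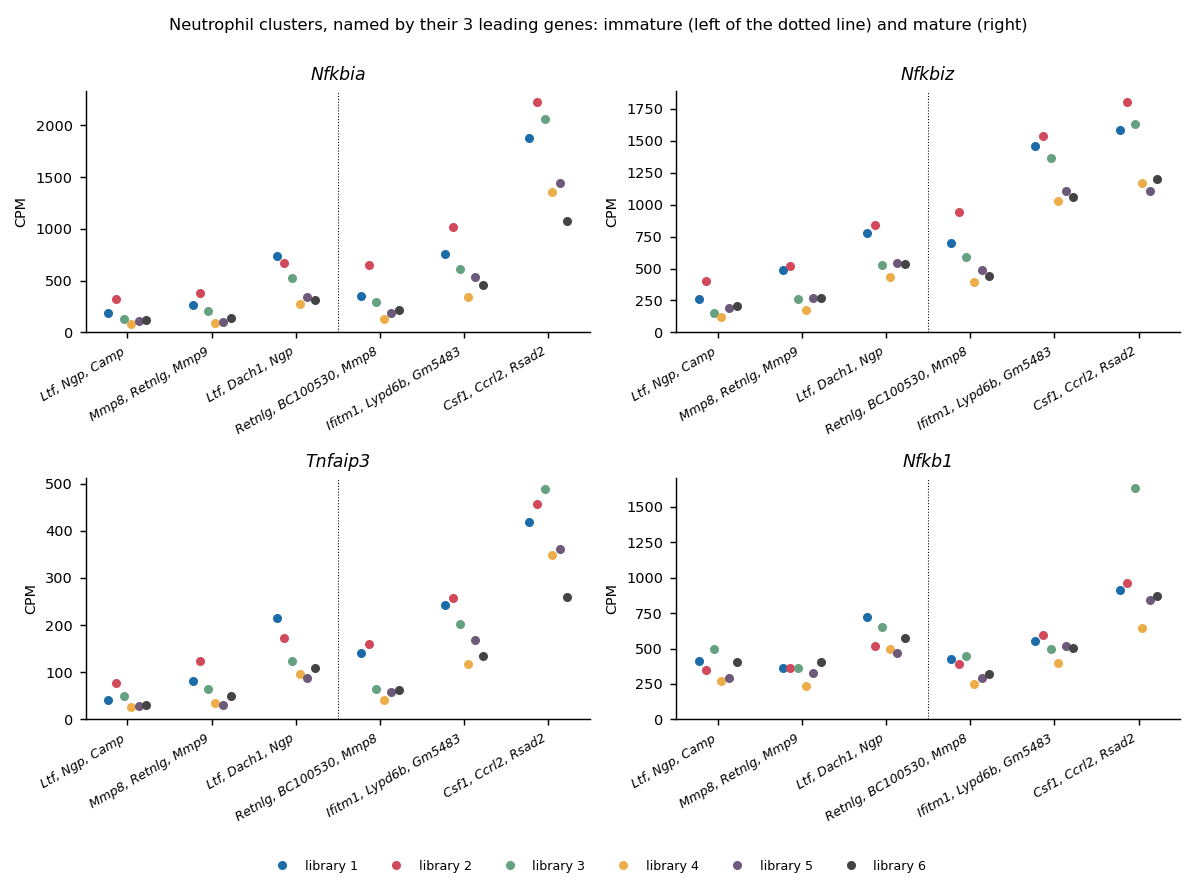
Levels of Nfkbia, Nfkbiz, Tnfaip3 and Nfkb1 in 3 immature and 3 mature neutrophil clusters, in CPM on linear axes from 0, with 1 point per library. The mature cluster led by Csf1, Ccrl2 and Rsad2 has the highest Nfkbia points, from 1078 to 2224 CPM, and library 2 is the highest Nfkbia point in 5 of the 6 clusters.

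Monocyte-like cells held a cluster led by Arhgef37, Gm26522 and Hspa1a (828 cells) with 52.5 CPM of Bcl3, 171 CPM of Nfkbiz and 61.5 CPM of Tnfaip3, whereas the cluster led by Vcan, Nrg1 and Plcb1 (1615 cells) held 151, 69.4 and 25.4 CPM. In B cell-like cells the Bank1, Ighd and Fcer2a cluster held 1626 CPM of Rel and the Ms4a1, Sox5 and Klhl14 cluster 854 CPM, and the ranges over 6 libraries, 1442 to 1859 and 824 to 874 CPM, did not overlap. How many of all genes separate these B cell-like clusters was not counted. Bcl3 had the reverse order there, 41.9 against 99.4 CPM. Inflammatory macrophage-like cells of the Ccl8, Apoe and Arg1 cluster held 529 CPM of Nfkbiz against 194 CPM in the Mmp19, Cxcl9 and Arg1 cluster. T cell-like cells of the Ctla4, Icos and Tnfrsf4 cluster held 759 CPM of Nfkbia and 1304 CPM of Nfkb1, against 433 and 861 CPM in the Xcl1, Trbc2 and Ccl5 cluster, with Tnfaip3 at 434 and 432 CPM. The ranges of these T cell-like clusters over the libraries overlapped. They were 523 to 1105 against 240 to 554 CPM for Nfkbia and 1116 to 1801 against 478 to 1254 CPM for Nfkb1.

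The rest of the pathway was read from gene lists. These genes, unlike the members, could enter the clustering that made the classes, so their counts are a description. Of 24 known NF-κB targets (cytokines, chemokines, survival genes), 16 of the 23 with at least 5 CPM were called higher in inflammatory macrophage-like than in monocyte-like cells and 0 lower, with a median log2 ratio of 1.35. Of all genes in that pair, 14.9% were called higher and 21.0% lower. In mature against immature neutrophil-like cells it was 11 higher and 0 lower of 19, led by Ptgs2 (891 against 94.8 CPM), and in T cell-like against B cell-like cells 14 higher and 3 lower of 20. The shares of all genes called higher and lower were 24.3% and 23.8% in the neutrophil pair and 20.5% and 22.3% in the lymphocyte pair. Against resident macrophage-like cells the inflammatory class had 2 higher and 5 lower of 23, near the 7.27% and 20.6% of all genes. Most upstream kinases, adaptors and ubiquitin enzymes had overlapping ranges in the dendritic and B cell pairs. In migratory against type 2 dendritic cell-like cells 8 of 22 were called higher and 2 lower, in B cell-like against pre-B cell-like cells 6 of 21 higher and 1 lower, and in mature neutrophil-like against monocyte-like cells 3 of 21 higher and 11 lower, shares near or under the 14.8% and 63.7% of all genes in that pair. Of all genes, 12.2% were called higher and 22.7% lower in the dendritic pair, and 11.9% and 12.0% in the B cell pair. Of the 4 other IκB family inhibitors, 3 were called higher in mature than in immature neutrophil-like cells and 0 lower.

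Over the 22 classes, the genes whose log2(CPM + 1) profile was most like that of a member included other members. Nfkb2 was the gene most like Relb (Pearson r = 0.855 over 22 classes, among 10555 genes of at least 20 CPM in 1 class) and Relb the most like Nfkb2. Nfkbia was the gene most like Nfkb1 (r = 0.862). For Rel the closest were Nfkbie, Cd274 and Malt1 (r = 0.830, 0.827 and 0.806), and for Nfkbia Ifrd1, Nfkb1 and Kdm6b (0.873, 0.862 and 0.849). Nfkbiz ran with Ccnl1, Ptp4a1 and Ddx3x (0.902, 0.886 and 0.882), Tnfaip3 with Ddx5, Pnrc1 and Gm20186 (0.862, 0.849 and 0.848), and Rela with Tmem88, Maff and Kdm6b (0.895, 0.895 and 0.879). Bcl3 ran with Sbno2, Ppard and Ptprj (0.834, 0.791 and 0.740), and its correlation with Tnfaip3 was 0.0179. The classes share libraries and differ in depth, and these coefficients are a description.

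The spread between libraries depended on the cell class. In immature neutrophil-like cells Nfkbia ran from 106 CPM in library 4 to 467 CPM in library 2, a ratio of 4.39, and 0.231% of the 865 genes of like level (within 2-fold) spread more. For Nfkbiz the ratio was 3.60 (1.04% spread more) and for Tnfaip3 3.46 (0.723%), while Rela, at 1.42, was under the median of its like genes, 1.48. The immature cluster led by Ltf, Dach1 and Ngp had the highest Nfkbia level of the immature clusters in each library. It made up 28.2%, 29.3%, 21.7%, 7.9%, 12.7% and 9.47% of the class in libraries 1 to 6. The part of this mix in the spreads was not tested. In mature neutrophil-like cells Nfkbia had a ratio of 2.71, with 2.21% of genes of like level spreading more. In resident macrophage-like cells, by contrast, Rel and Nfkbiz spread less than most genes of their level (ratios 1.14 and 1.16, with 94.5% and 92.6% of like genes spreading more). Over the 14 classes with all 6 libraries, Nfkb2 was highest in library 1 in 11, Nfkbiz in library 2 in 8 and Rel in library 3 in 8. Rel and Nfkbia were each lowest in library 4 in 7.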

How the data were processed

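The authors made 10x Chromium 3′ libraries from the sorted cells and, per the labels, aligned reads to mm10 with Cell Ranger 7. They then removed ambient RNA, doublets and low-quality cells, as their methods state, and deposited one matrix of UMI counts with gene symbols and barcodes. Zeros stored in the matrix (1.68% of entries) were dropped.

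From the counts, the members were removed before 2000 variable genes were chosen. Values per 10000 UMIs were log-transformed, scaled, reduced to 30 components and clustered with Leiden (15 neighbours, resolution 1.0; scanpy 1.11.5, igraph 0.11.9). A cluster was named from the class with most fixed markers among its 10, then 30, leading genes, with at least 3 markers detected in 25% of its cells. Clusters with leading markers of several classes were clustered again, and a cluster led by Jchain and Igha and one led by Acta1 and Myl1 stayed unnamed. These last steps were added after the data were seen. Doublets were not called again. Granule RNA outside the neutrophil classes is given above for some classes. Among T cell-like cells, 20 of 1226 were over 2000 CPM of granule genes. Whether this RNA comes from background or from doublets was not tested.

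UMIs were summed per class and library as CPM. Libraries with under 20 cells of a class were left out of its range. Shares are cells with a UMI, also after thinning each cell to 2000 UMIs (shallower cells left out), with 95% Wilson intervals that cover counting error only. Ranges were compared as described, without a test, since the treatment of the libraries is not known. The range rule was checked on simulated data. All simulated libraries of a class had the same profile, so this check does not cover spread between libraries. The members, lists and pairs were chosen with earlier results of these data known. Named genes are the 9 members, per member the 3 genes with the most similar profile, and per pair the 3 list genes with the largest ratio among those whose ranges did not overlap, and other genes are class markers, cluster leaders or examples from the lists. Alternatives were other resolutions, gating of single cells, equal weight for libraries, another denominator, a minimum of 50 cells and leaving out libraries, clusters or cells.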

Additional observations from a re-analysis of the deposited data

How the results depend on the processing

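None of the 63 ratios, each run under 16 other settings, was reversed where a member was called. Leaving out a cluster could not change the counts or ratios of pairs without its class. The minimum of 50 cells removed no library from the pairs it was counted in. With these runs included, of 111 counts of members apart under other settings, 101 stayed within 1.5 times the reported count. The exceptions were resolution 0.5 (7 members for mature against immature neutrophil-like cells, reported as 3), resolution 2.0 (1 for mature neutrophil-like and 5 for inflammatory macrophage-like against monocyte-like cells, reported as 4 and 8), and cells gated one by one, with 5, 1, 0 and 1 for the first 4 pairs (reported as 3, 4, 8 and 3). When single libraries were dropped (leave-one-out), the counts ran from 3 to 5, from 4 to 6, at 8 throughout, from 3 to 5, from 4 to 6, from 4 to 5 and from 6 to 7 in the order of the report, and the 5 of the first pair came without library 2 or 4 and that of the fourth without library 2. The cause was not tested. Leaving out genes over 0.5% of UMIs from the denominator moved 108 of 198 levels by more than 1 SD of the libraries, but 13 of 63 ratios. Thinning moved 195 of 198 shares, as fewer UMIs per cell must. With all genes with a UMI as background, 13 of the 14 background shares moved by over 1.5 times. The settings that leave out clusters, granule-rich cells or shared barcodes were chosen after seeing the data. Migratory dendritic cell-like cells had no library with 50 cells, so that minimum gave no count for them. No paired analysis was possible because the replicate numbers of the labels could not be tied to the libraries, and the planned vehicle against PEPITEM test with edgeR was not run for the same reason. Depth limits the rare classes most: Bcl3 in mast cell-like cells rests on 18 UMIs.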

Other observations

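In mature neutrophil-like cells the Nfkbia values of the libraries fell into separate clusters. There, libraries 1, 2 and 3 stood at 1032, 1089 and 972 CPM and libraries 4, 5 and 6 at 402, 499 and 403 CPM. The same libraries gave 1369, 1382 and 1282 CPM, then 817, 833 and 793 CPM, for Nfkbiz, and 279.9, 256 and 258 CPM, then 122, 145 and 113 CPM, for Tnfaip3, which negatively regulates the pathway. Rela, Rel, Relb and Nfkb1 were also higher in each of libraries 1 to 3 than in each of libraries 4 to 6. For Nfkb1 the values were 644, 584 and 823 CPM, then 379, 460 and 452 CPM. Nfkb2 and Bcl3 were not ordered in this way. This division of the libraries was picked from these values, and the share of all genes that split like this was not counted. Within the cluster led by Ifitm1, Lypd6b and Gm5483 the Nfkbia values were 753, 1021, 608, 341, 531 and 459 CPM for libraries 1 to 6. The cluster led by Csf1, Ccrl2 and Rsad2 made up 33.6%, 18.4%, 31.5%, 18.4%, 16.1% and 11.7% of the mature neutrophil-like cells of libraries 1 to 6. The summed immediate-early and heat shock genes stood at 10109, 8336, 9218, 9343, 8251 and 7089 CPM in the same order. The split of Nfkbia values, with each of libraries 1 to 3 above each of libraries 4 to 6, was not particular to these cells. For libraries 1 to 6 it stood at 375, 467, 256, 106, 151 and 153 CPM in immature neutrophil-like cells, at 783, 821, 856, 526, 607 and 527 CPM in inflammatory macrophage-like cells and at 864, 593, 665, 529, 466 and 488 CPM in T cell-like cells. Pre-B cell-like, proliferating-like and granulocyte precursor-like cells also had each of libraries 1 to 3 above each of libraries 4 to 6. The libraries were not ordered in this way in monocyte-like cells (428, 250.2, 318, 273, 251 and 276 CPM), nor in B cell-like, NK cell-like, pro-B cell-like, plasmacytoid dendritic cell-like, type 2 dendritic cell-like or resident macrophage-like cells. Immature neutrophil-like cells had the same split for Nfkbiz, at 456, 591, 277, 164, 267 and 265 CPM. So did inflammatory macrophage-like cells, at 397, 485, 406, 301, 322 and 297 CPM. Type 2 dendritic cell-like cells had the reverse split for Nfkbiz, at 389, 371.5, 321, 448, 419.6 and 440.1 CPM. For Tnfaip3 the split also held in immature neutrophil-like, proliferating-like, pro-B cell-like, inflammatory macrophage-like and resident macrophage-like cells. Type 2 dendritic cell-like cells had the reverse split for Tnfaip3 too. The other classes with at least 20 cells in all 6 libraries had neither order for Tnfaip3. The treatment of these libraries is not known, and the part of any of these values in the split was not tested.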
